A study of Danio rerio with 6 samples.

Results

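The genes described here are those whose reads were strongly restricted to the distal piece of the regenerating zebrafish caudal fin. A gene was taken when its mean level over the 3 distal libraries was at least 5 CPM (counts per 1000000 reads assigned to genes) and its lowest distal level was at least 6 times its highest proximal level. Of the 31901 genes listed, 12368 reached the mean of 5 CPM in distal tissue, and 112 of these, or 0.906%, met the whole rule. The rule turned around, with proximal in place of distal, was met by 50 of 12118 genes, or 0.413%. The 112 genes were selected on the distal and proximal CPM values of all 6 libraries, so their separation between the regions is a description and carries no test.

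All fins came from fish with the shha:eGFP transgene, in which regulatory sequence of shha drives a green fluorescent protein, and were regrowing 96 hours after amputation. Each regenerate was microdissected into a distal piece, told apart by its reporter fluorescence, and a proximal piece. The 6 libraries are 3 distal and 3 proximal samples, numbered 2, 3 and 4 in both regions, and each sample pooled the tissue of 4 caudal fins. The fish carry no other stated allele or treatment, and no uninjured fin was part of the comparison. In such bulk samples, fewer cells of a type and less RNA per cell cannot be told apart.

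A fin ray regrows from a blastema, a mass of dividing mesenchymal cells under a thick wound epidermis. Distal mesenchyme and the epidermis over it exchange Wnt, Fgf, Bmp and Hedgehog signals that keep the outgrowth going, while cells left behind proximally differentiate into bone-forming and connective tissue. At the tip, actinotrichia, stiff fibrils built of collagen and actinodin proteins, support the soft edge of the fin, and the basement membrane between epidermis and mesenchyme is newly laid down.

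Libraries held 20113859 to 23629159 gene-assigned reads, so that 3 reads corresponded to 0.127 to 0.149 CPM. The regions were checked against their label through the 2 genes named SHH in the table of gene names, which does not tell the paralogs apart. ENSDARG00000068567 had 17.7 ± 3.26 CPM in distal and 5.95 ± 0.707 CPM in proximal tissue (log2 fold change 1.45, SE 0.17, edgeR adjusted p = 6.27e-04), and ENSDARG00000038867 had 0, 0 and 0 CPM in distal and 0.0846, 0.0914 and 0.0466 CPM in proximal libraries, all under the level of 3 reads. Of the 18455 genes that edgeR tested, 15.3% were higher distally and 14.4% proximally, or 23.3% and 25.1% with the replicate number as a block. Counts on gene lists are to be read against these shares. The lists were chosen with earlier results of these data known, so such counts are a description. Epidermal markers (9 genes matched) summed to 23847 to 25307 CPM in distal and 47936 to 53079.9 CPM in proximal libraries, and 6 of the 9 were higher in proximal tissue, with 0 higher in distal tissue. Pigment cell markers summed to 24.7 to 35.1 CPM in distal and 92.6 to 133 CPM in proximal libraries, with 9 of 12 higher in proximal and 2 in distal tissue. Markers of joint and hypodermal fibroblasts summed to 1216 to 1365 CPM in distal and 698 to 899 CPM in proximal libraries, with 3 of 9 tested genes higher in each region. Red blood cell markers reached 485 CPM in distal replicate 3 and 24.9 and 42.8 CPM in the other distal libraries, against 19.4 to 213 CPM in proximal ones. The part of these tissue differences in the values of the 112 genes was not tested.

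The 112 genes covered a wide range of levels. Their mean distal level ran from 5.07 to 2136 CPM with a median of 33.3, a 421-fold span, and their mean proximal level from 0.0446 to 183 CPM with a median of 2.29. At least 10 CPM in distal tissue was reached by 93 genes, at least 100 CPM by 25 and at least 500 CPM by 8. Together they took 1.37%, 1.38% and 1.38% of gene-assigned reads in distal replicates 2, 3 and 4 and 0.106%, 0.101% and 0.0889% in the proximal libraries. The distal share was thus close to equal in the 3 distal libraries (1.37 ± 0.00672%, mean ± SD, n = 3), and the proximal share was lowest in replicate 4. The 8 genes with the most reads supplied over 50% of the reads of the 112, and the single gene and2 supplied 15.6%. For scale, the 50 genes restricted to proximal tissue took 0.925 ± 0.0814% of reads in proximal and 0.0732 ± 0.00979% in distal libraries. Levels are reads per library and are not divided by transcript length, so the order of genes by CPM is an order of reads, not of transcript numbers.

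**Figure D1:**
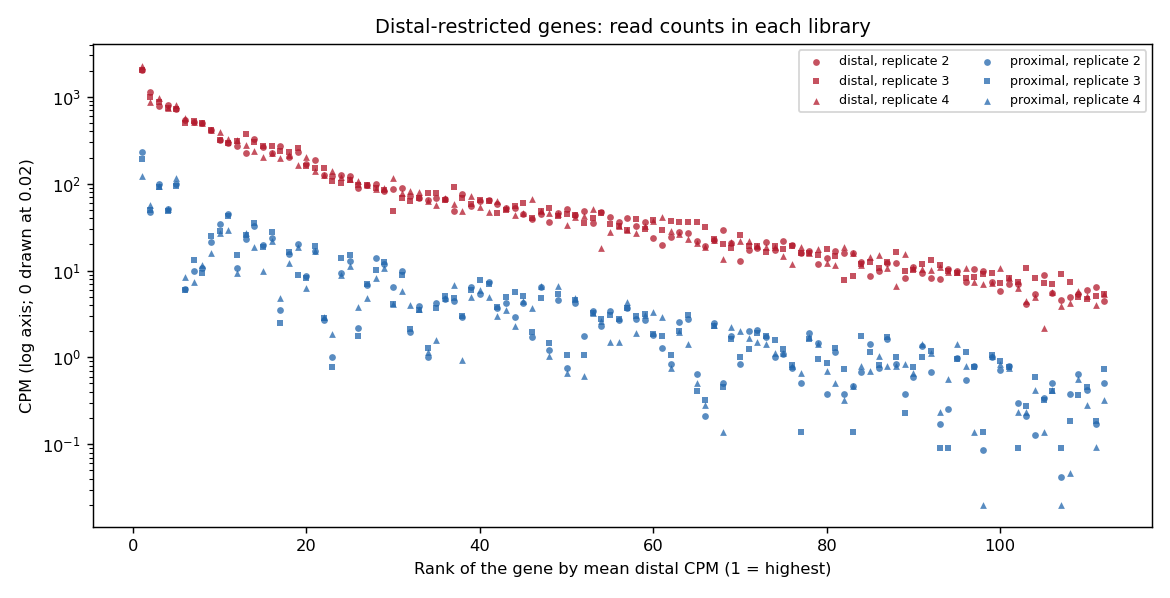
CPM on a log axis of the 112 distal-restricted genes, ranked by mean distal CPM, with 1 point for each of the 3 distal (red) and 3 proximal (blue) libraries and values of 0 drawn at 0.02. The red points fall from 2136 CPM on average at rank 1 to 5.07 CPM at rank 112, and the blue points lie at least 6-fold below the red ones at every rank, as the rule requires.

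The size of the distal excess also varied. The ratio of the mean distal to the mean proximal level is given for the 110 genes with more than 3 reads in some proximal library. It ran from 7.28 for TCF7 to 101 for gfra3 with a median of 13.9, and was at least 10 in 87 genes, at least 20 in 34 and at least 50 in 10. The other 2 genes, slc39a4 and LRRTM4, had at most 3 reads in each proximal library, and no fold is given for them. Levels here are scaled by library totals. TMM scaling, which corrects for composition, moves levels toward proximal tissue by 0.12 on the log2 scale on average over the libraries. Its factors differed between libraries (0.920 to 1.07), so ratios of single genes moved by more or by less. After it, 99 of the 112 genes still met the rule. The 13 lost were fras1, BAMBI, msx2a, MAP1B, UNC13B, GRIP1, FGF20, ednrab, SHISA2, n4bp3, ADAMTS5, cntnap1 and IGDCC3. Of these, IGDCC3 kept a ratio of 21.2 and was lost through the minimum mean of 5 CPM. Just inside the limit of 6 lay cntnap1, ednrab and SHISA2, with a lowest distal level 6.05, 6.05 and 6.10 times the highest proximal one. Just outside lay cass4, ROBO1 and a second gene named MEGF6 (ENSDARG00000074808), at 5.98, 5.94 and 5.93. The gene with the highest mean that met the ratio but stayed under 5 CPM was RTN4R at 4.93 CPM, and the lowest member was cntnap1 at 5.07 CPM.

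**Figure D2:**
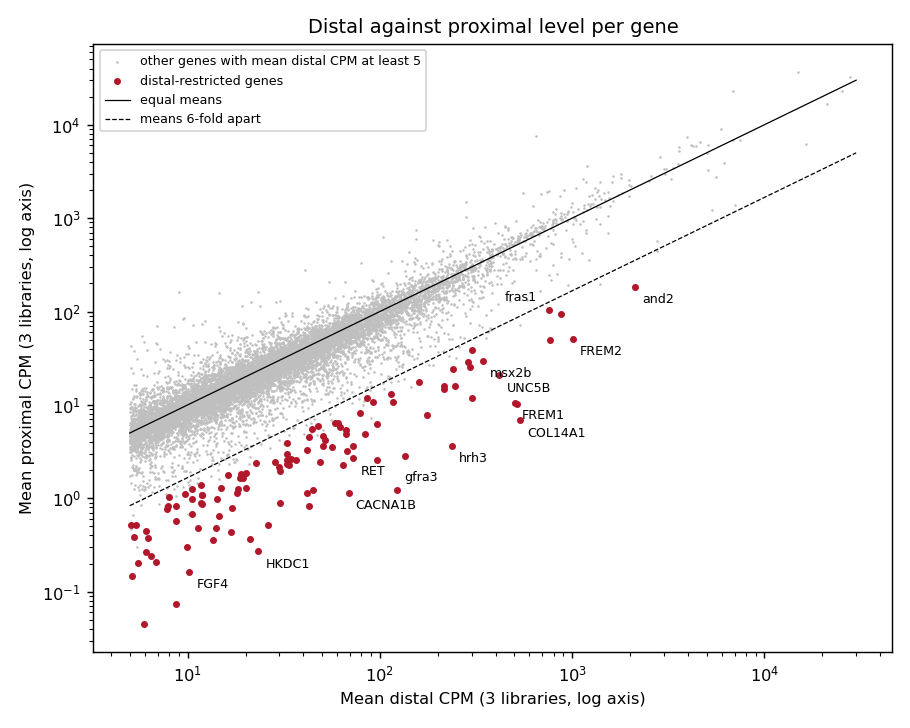
Mean proximal against mean distal CPM, both on log axes, for the 12368 genes with a mean distal level of at least 5 CPM, with the 112 distal-restricted genes in red and lines for equal means and for means 6-fold apart. Members lie below the dashed line over the whole range of levels, from cntnap1 at 5.07 CPM to and2 at 2136 CPM.

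Actinodin genes 2 and 3 were among the 112. Actinodins are structural proteins of the actinotrichia. The gene and2 (ENSDARG00000079302) had 2066, 2067 and 2274 CPM in distal replicates 2, 3 and 4 and 231, 193 and 124 CPM in the proximal ones, a ratio of means of 11.7. Distal replicate 4 was the highest distal and proximal replicate 4 the lowest proximal library for this gene. Its relative and3 (ENSDARG00000056873) had 15.8, 8.64 and 15.96 CPM in distal replicates 2, 3 and 4 and 0.466, 0.137 and 0.466 CPM in the proximal ones, a ratio of 37.8, with replicate 3 lowest in both regions. The proximal values of and3 rest on 11, 3 and 10 reads. The gene and1, which did not meet the rule, had 5364 ± 555 CPM in distal and 1229 ± 152 CPM in proximal tissue (log2 fold change 2.01, SE 0.13, edgeR adjusted p = 3.06e-05). List counts and medians here and further on leave out the genes of the 112, which were chosen on the same contrast. Among the 11 other tested genes of a list for actinotrichia, 5 were higher distally and 4 proximally, against 15.3% and 14.4% of all genes tested. Their median log2 fold change was -0.0038, beside -0.01 for all tested genes. Type I collagen chains of that list went both ways: col1a1a had 16483 ± 3464 CPM in distal and 6279.7 ± 643 CPM in proximal tissue (log2 fold change 1.28, SE 0.18, edgeR adjusted p = 0.00127), whereas COL1A2 had 3583 ± 379 CPM in distal and 5204 ± 269.8 CPM in proximal tissue (log2 fold change -0.66, SE 0.12, edgeR adjusted p = 0.00432).

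Genes for the Fraser complex formed the group with the most reads among those given by role. This complex of large extracellular proteins, Fras1 and the Frem proteins, anchors the epidermal basement membrane to the mesenchyme below; GRIP1 is an adaptor protein that brings Fras1 and Frem proteins to the cell surface in mouse, and VWA2 (AMACO) is a basement membrane protein that associates with the complex. The roles were assigned after the 112 genes were known. The 6 genes together made up 21.4% of the reads of the 112 in distal tissue. FREM2 (ENSDARG00000076856) had 1132, 1005 and 882 CPM in distal replicates 2, 3 and 4 and 47.5, 49.6 and 56.7 CPM in the proximal ones, a ratio of means of 19.6. Within distal tissue it was highest in replicate 2 and lowest in replicate 4, the reverse of its order in proximal tissue. FREM1 (ENSDARG00000069473) had 505, 505 and 501 CPM in distal replicates 2, 3 and 4 and 10.6, 9.46 and 11.5 CPM in the proximal ones, a ratio of 48.00. FREM3 (ENSDARG00000074677) had 515, 522 and 514 CPM in distal replicates 2, 3 and 4 and 9.78, 13.1 and 7.45 CPM in the proximal ones, a ratio of 51.1. For both genes the distal libraries lay within a few percent of each other. The gene fras1 (ENSDARG00000054619) had 732, 732 and 797 CPM in distal replicates 2, 3 and 4 and 100.4, 94.5 and 115 CPM in the proximal ones, and with a ratio of 7.29 it stayed close to the limit of the rule. VWA2 had 122, 109 and 113 CPM against 13.03, 15.3 and 11.3 CPM and GRIP1 46.01, 42.02 and 44.4 CPM against 4.57, 5.39 and 6.66 CPM in the same order of libraries. Under TMM scaling fras1 and GRIP1 no longer met the rule, at 5.47 and 5.43 times.

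Not every gene of this complex was distal-restricted. A second gene named FREM2 (ENSDARG00000102626) had 2777 ± 114 CPM in distal and 446 ± 24.3 CPM in proximal tissue (log2 fold change 2.52, SE 0.10, edgeR adjusted p = 4.72e-06), with its lowest distal level 5.67 times the highest proximal one. The gene frem1b had 24.7 ± 5.88 against 23.04 ± 7.20 CPM (edgeR log2 fold change -0.01, adjusted p = 0.976), and its libraries overlapped. HMCN1, which encodes the matrix protein hemicentin, had 76.6 ± 1.63 CPM in distal and 106 ± 23.1 CPM in proximal tissue (log2 fold change -0.58, SE 0.13, edgeR adjusted p = 0.0134, and 0.0522 without distal replicate 3), and FBLN1, which encodes fibulin, had 58.5 ± 11.1 CPM in distal and 9.83 ± 0.351 CPM in proximal tissue (log2 fold change 2.45, SE 0.15, edgeR adjusted p = 2.92e-05). The list for apical epidermis and basement membrane holds 4 Fras and Frem genes of the 112. Of its 22 other tested genes, 16 were higher distally and 2 proximally, against 15.3% and 14.4% of all genes, with a median of 1.45 on the log2 scale. Of 4 laminin genes on the list 3 were higher in distal tissue and 1, a LAMB1 gene (ENSDARG00000045524), in proximal tissue. LAMA5 had 679 ± 49.3 CPM in distal and 165 ± 24.6 CPM in proximal tissue (log2 fold change 1.91, SE 0.15, edgeR adjusted p = 7.26e-05). The summed epidermal markers were lower in distal than in proximal libraries, as given above. The part of epidermal content in the values of the Fras, Frem and laminin genes was not tested.

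**Figure D3:**
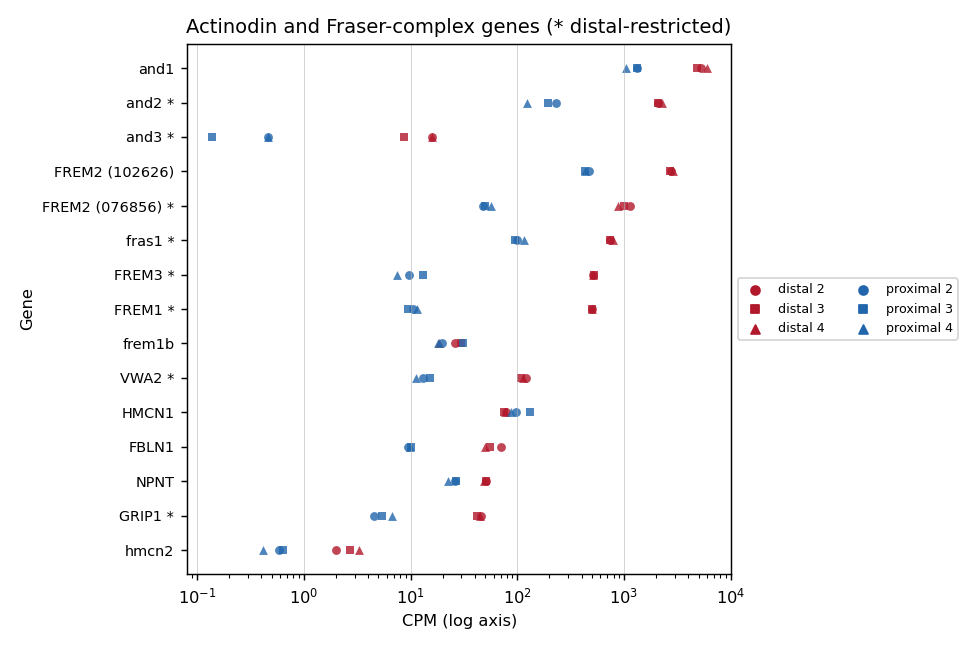
CPM on a log axis in each library for actinodin genes, Fras and Frem genes and genes whose products associate with the Fraser complex; red is distal, blue is proximal, symbols give the replicate, and an asterisk marks the distal-restricted genes (digits in brackets are the last 6 of the identifier where a symbol is shared). Red and blue points are far apart for FREM1 and FREM3 and overlap for frem1b, and HMCN1 has its highest points in proximal tissue.

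A role group for other matrix genes, which also takes in genes for enzymes, took another 19.6% of the reads of the 112. COL14A1, which encodes a collagen that decorates the surface of collagen fibrils, had 536, 494 and 571 CPM in distal replicates 2, 3 and 4 and 6.09, 6.03 and 8.38 CPM in the proximal ones. Its ratio of means was 78.1, and even the lowest distal library was 59.0 times the highest proximal one. OGN, for the small proteoglycan osteoglycin, had 792, 878 and 969 CPM against 101, 90.8 and 92.97 CPM, and ecm2, for a related leucine-rich matrix protein, had 812, 745 and 748 CPM against 51.3, 48.05 and 50.6 CPM. Both were high throughout the distal libraries, and the proximal levels of ecm2 hardly varied. MEGF6 (ENSDARG00000079199), for a secreted protein with many EGF-like repeats, had 127, 151 and 125 CPM against 2.71, 2.83 and 2.93 CPM, a ratio of 47.5. MYOC, for myocilin, had 176 ± 23.1 against 7.73 ± 1.22 CPM, and ncana, for the chondroitin sulfate proteoglycan neurocan, 42.02 ± 6.56 against 1.14 ± 0.592 CPM (mean ± SD, n = 3). The metalloproteinase genes adamts2b and ADAMTS5, whose mammalian counterparts process procollagen and cleave proteoglycans, had ratios of 10.7 and 8.58 at mean distal levels of 20.2 and 9.66 CPM. The remaining genes placed in this role group, hce2l2, MXRA5 and ITIH5, had ratios of 37.6, 15.7 and 11.5. Genes for a pair of collagen receptors also met the rule: ITGA11, an integrin subunit, with 96.2, 97.8 and 95.8 CPM against 6.86, 6.95 and 4.80 CPM, and DDR2, a receptor tyrosine kinase, with 11.04, 10.1 and 10.6 CPM against 0.592, 0.777 and 0.652 CPM. On a separate list of matrix remodelling genes none met the rule, beside 0.906% of the 12368 genes at 5 CPM or more in distal tissue. Of its 29 tested genes, 15 were higher distally and 4 proximally, against 15.3% and 14.4% of all genes tested. The list median was 0.72 on the log2 scale. TNC, for tenascin C, is an example with 1401 ± 359 CPM in distal and 197 ± 81.00 CPM in proximal tissue (log2 fold change 2.73, SE 0.33, edgeR adjusted p = 6.45e-04).

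Transcription factor genes numbered 6 by the role groups, besides TCF7. The homeobox gene msx2b (ENSDARG00000101023), of a family known in the fin blastema, had 318, 322 and 391 CPM in distal replicates 2, 3 and 4 and 34.03, 28.3 and 27.1 CPM in the proximal ones, a ratio of 11.5. Its paralog msx2a had 99.1, 88.9 and 88.05 CPM against 13.9, 10.01 and 8.19 CPM and a ratio of 8.60, and under TMM scaling it fell just outside the rule at 5.78 times. The other msx genes did not meet the rule. Of these, msx3 had 200.3 ± 18.3 CPM in distal and 53.8 ± 12.3 CPM in proximal tissue (log2 fold change 1.78, SE 0.15, edgeR adjusted p = 1.13e-04) and msx1b 127 ± 9.71 CPM in distal and 55.6 ± 7.59 CPM in proximal tissue (log2 fold change 1.07, SE 0.11, edgeR adjusted p = 3.46e-04). The gene msx1a had 4.96 ± 0.940 CPM in distal and 0.587 ± 0.311 CPM in proximal tissue (log2 fold change 2.94, SE 0.35, edgeR adjusted p = 6.06e-04). It missed both limits, with a lowest distal level 4.65 times the highest proximal one. PRDM1, a zinc finger repressor gene (Blimp1), had 270.3, 314 and 319 CPM against 10.8, 15.2 and 9.40 CPM, a ratio of 25.6, and MAF, of the basic leucine zipper class, 201, 234 and 216 CPM against 15.7, 16.2 and 12.3 CPM. SALL4, a zinc finger factor known from stem cells, had 52.7, 55.7 and 43.2 CPM against 2.92, 5.62 and 2.28 CPM, with replicate 3 highest in both regions. SALL1 (ENSDARG00000075891) had 19.9, 29.4 and 41.5 CPM against 1.27, 1.78 and 2.89 CPM, a 2.09-fold span between its lowest and highest distal library. A second SALL1 (ENSDARG00000074319) had 164 ± 12.4 CPM in distal and 41.4 ± 7.82 CPM in proximal tissue (log2 fold change 1.87, SE 0.13, edgeR adjusted p = 4.83e-05) and did not meet the rule. The list of blastema transcription factors holds 4 genes of the 112, namely msx2a, msx2b, SALL1 and SALL4. Of its 19 other tested genes, 12 were higher distally and 1 proximally, against 15.3% and 14.4% of all genes, with a median of 0.98 on the log2 scale.

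Signalling genes of the Wnt, Fgf and Bmp pathways numbered 7 among the 112. TCF7, a transcription factor that acts with beta-catenin, had 83.03, 85.3 and 88.5 CPM in distal replicates 2, 3 and 4 and 11.9, 12.6 and 10.8 CPM in the proximal ones. Its ratio of 7.28 was the lowest of the 110 given, while the spread between replicates was small in both regions. The Wnt inhibitor gene dkk1b had 7.45, 8.14 and 10.6 CPM against 0.550, 1.14 and 0.791 CPM, and sfrp2l, of the secreted Frizzled-related family, 26.8, 36.3 and 22.8 CPM against 2.79, 3.06 and 1.44 CPM. SHISA2, whose product holds back Wnt and Fgf receptors in frog embryos, had 12.2, 12.6 and 10.6 CPM against 1.61, 1.74 and 0.791 CPM. FGF4 (ENSDARG00000105230), a ligand gene, had 7.96, 11.6 and 10.9 CPM against 0.169, 0.0914 and 0.233 CPM, with 4, 2 and 5 reads in the proximal libraries and a ratio of 61.9. FGF20 (ENSDARG00000007356) had 12.8, 25.5 and 21.8 CPM against 0.846, 1.01 and 2.00 CPM, with distal replicate 2 lowest; fish lacking fgf20a are known to fail at fin regeneration, but the table does not say which FGF20 gene is that paralog. BAMBI (ENSDARG00000055381), for a decoy receptor that dampens Bmp and activin signals, had 291, 292 and 325 CPM against 44.4, 42.3 and 29.1 CPM. Under TMM scaling FGF20, BAMBI and SHISA2 did not meet the rule, at 5.68, 5.94 and 5.93 times.

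The same pathways were read through 13 gene lists, of which 333 identifiers were found in the files and 15 were among the 112. Over all 31901 genes listed, 112 met the rule, or 0.906% of the 12368 with a mean distal level of at least 5 CPM. The 333 identifiers also take in genes under that mean, so 15 of 333 is not comparable with 0.906%. Over all genes tested, 15.3% were called distally and 14.4% proximally. For Fgf, FGF4 and FGF20 (ENSDARG00000007356) were left out. Of the 25 other tested genes, 18 were higher distally and 2 proximally, with a median of 1.14 on the log2 scale. The 18 include a second FGF20 (ENSDARG00000086070). It had 5.61 ± 1.06 CPM in distal and 1.22 ± 0.595 CPM in proximal tissue (log2 fold change 2.07, SE 0.35, edgeR adjusted p = 0.00335). The Fgf response gene etv5b had 179.6 ± 34.98 CPM in distal and 26.6 ± 0.737 CPM in proximal tissue (log2 fold change 2.63, SE 0.14, edgeR adjusted p = 1.46e-05). Wnt response genes and modulators other than TCF7 and dkk1b gave 16 of 30 higher distally and 7 proximally, with a median of 0.49. Wnt ligands gave 8 of 17 higher distally and 2 proximally (5 in proximal with the replicate number as a block, where 25.1% of all genes were so called), with a median of 0.27 and none among the 112. WNT5A had 131 ± 23.5 CPM in distal and 26.7 ± 6.01 CPM in proximal tissue (log2 fold change 2.17, SE 0.21, edgeR adjusted p = 2.01e-04). The Bmp, activin and Tgf-beta list, apart from BAMBI (ENSDARG00000055381), gave 19 of 34 higher distally and 3 proximally (7 with the block), with a median of 0.72.

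Several other lists held no distal-restricted gene at all. The rule was met by only 0.906% of the 12368 genes at 5 CPM or more in distal tissue, so 0 on lists this short carries no result. Of the Hedgehog pathway genes, 12 of 15 tested were higher distally and 1 proximally, with a median of 0.72. Among Dachshund and Eya factors with their homeobox partners, 3 of 9 were higher in distal tissue (5 with the block, where 23.3% of all genes were so called) and 1 in proximal tissue, with a median of 0.34; dachc, a Dachshund-type transcription factor gene, had 55.02 ± 7.78 CPM in distal and 7.90 ± 2.04 CPM in proximal tissue (log2 fold change 2.68, SE 0.19, edgeR adjusted p = 4.91e-05). Retinoic acid genes gave 7 of 18 in distal and 4 in proximal tissue (10 and 5 with the block), with a median of 0.38. ALDH1A2, which makes retinoic acid, had 53.9 ± 5.07 CPM in distal and 8.92 ± 2.99 CPM in proximal tissue (log2 fold change 2.48, SE 0.21, edgeR adjusted p = 1.03e-04). Posterior Hox genes gave 3 of 18 in each direction (5 in distal and 7 in proximal tissue with the block), near the shares of 15.3% and 14.4% over all genes, with a median of 0.14. Notch and Ephrin genes gave 6 of 26 in distal and 4 in proximal tissue (9 and 6 with the block), the latter near the share over all genes, with a median of 0.11. Genes of these lists that were higher in distal tissue differed by less than the rule of the 112 asks or stayed under 5 CPM.

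**Figure D4:**
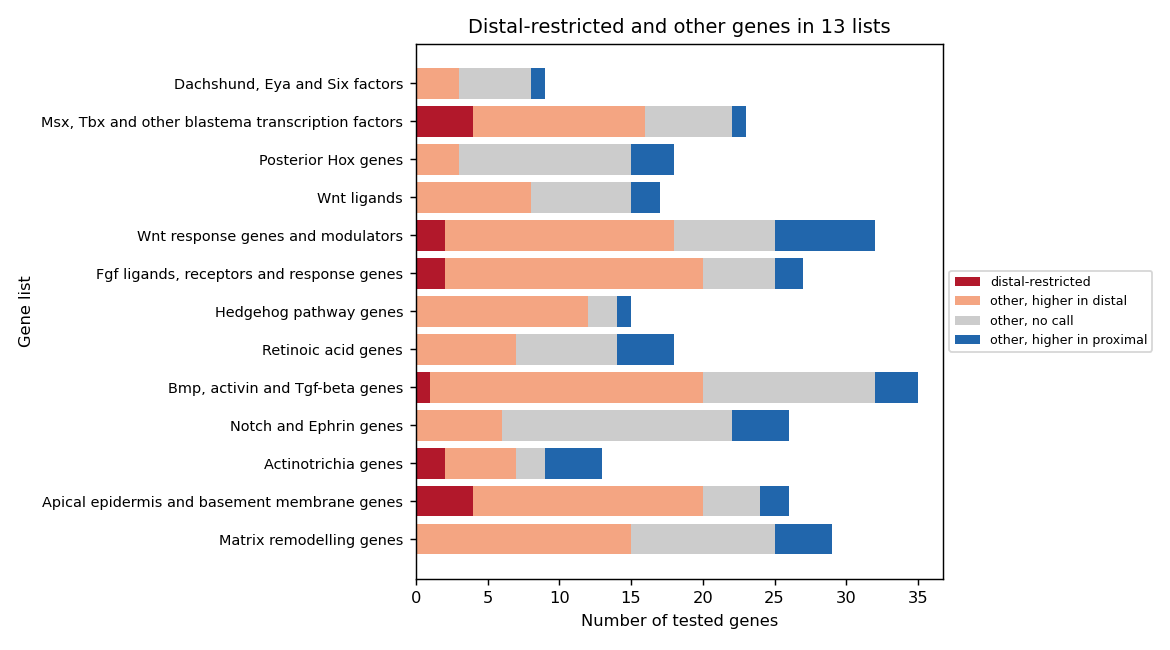
Number of tested genes in each of 13 gene lists, split into distal-restricted genes (dark red), other genes higher in distal tissue (light red), genes without a call (grey) and genes higher in proximal tissue (blue), from the edgeR test at an adjusted p under 0.05. Distal-restricted genes occur in 6 lists, with at most 4 in a list, and in each of the 6 the other genes higher in distal tissue are more numerous.

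Receptor genes for Gdnf-family ligands were a further group. RET is a receptor tyrosine kinase that signals together with a Gfra co-receptor when a ligand of this family binds, and the system is best known for guiding and sustaining neurons and kidney ducts. The gene gfra3 (ENSDARG00000087704) had 122, 106 and 139 CPM in distal replicates 2, 3 and 4 and 1.02, 0.777 and 1.86 CPM in the proximal ones. RET (ENSDARG00000055305) had 72.4, 62.9 and 82.4 CPM in distal replicates 2, 3 and 4 and 1.95, 2.10 and 4.00 CPM in the proximal ones, a ratio of 27.03. For both, replicate 4 was the highest library within each region. GFRA2 (ENSDARG00000042723) had 12.4, 11.9 and 11.5 CPM against 0.677, 1.78 and 0.791 CPM, and gfra4a 12.3, 16.4 and 6.61 CPM against 0.846, 1.01 and 0.791 CPM, with distal replicate 4 well below the other distal libraries. Outside the 112, gfra4b had 2.77 ± 0.609 against 0.208 ± 0.0401 CPM, a distal level under the minimum of 5 CPM, and GFRA1 (ENSDARG00000102564) had 6.63 ± 1.07 CPM in distal and 3.27 ± 0.980 CPM in proximal tissue (log2 fold change 0.90, SE 0.24, edgeR adjusted p = 0.0242). That call was lost without distal replicate 3 or 4 or proximal replicate 3 or 4, at edgeR adjusted p between 0.0556 and 0.0807. Ligand genes of the family were low in both regions. The GDNF gene with any reads (ENSDARG00000039959) had 1.08 ± 0.613 against 0.905 ± 0.289 CPM (edgeR log2 fold change 0.13, adjusted p = 0.861), artna, artnb and nrtn had at most 0.287 CPM on average in either region, and a second GDNF gene was listed at 0 in all 6 libraries.

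Guidance and cell-contact genes numbered 14. UNC5B (ENSDARG00000033327), a netrin receptor gene, had 412, 421 and 419 CPM in distal replicates 2, 3 and 4 and 21.5, 24.7 and 15.9 CPM in the proximal ones, a ratio of 20.2, with the 3 distal libraries nearly equal. ROBO3, of the family of Slit receptors, had 89.9, 68.8 and 77.3 CPM against 9.90, 8.82 and 5.87 CPM, and SLIT1 (ENSDARG00000044954), a ligand gene, 17.3, 19.02 and 18.6 CPM against 1.02, 1.60 and 1.12 CPM. ROBO1, outside the rule, had 188 ± 12.6 CPM in distal and 26.9 ± 2.67 CPM in proximal tissue (log2 fold change 2.69, SE 0.10, edgeR adjusted p = 3.68e-06). SLIT2, SLIT3 and ROBO2 had 81.5 ± 9.18 against 72.2 ± 4.68 CPM, 40.7 ± 1.27 against 39.8 ± 7.53 CPM and 22.8 ± 2.72 against 22.6 ± 2.97 CPM, with edgeR adjusted p of 0.777, 0.652 and 0.628. The 2 netrin genes named NTN1 went opposite ways: ENSDARG00000022531 had 2.01 ± 0.556 CPM in distal and 0.372 ± 0.181 CPM in proximal tissue (log2 fold change 2.30, SE 0.40, edgeR adjusted p = 0.00396), and ENSDARG00000105112 had 4.51 ± 0.521 CPM in distal and 26.3 ± 5.70 CPM in proximal tissue (log2 fold change -2.66, SE 0.19, edgeR adjusted p = 4.83e-05). Members of this group differ in spread: the semaphorin gene SEMA5B had 75.4, 68.8 and 48.97 CPM against 2.92, 2.97 and 0.931 CPM, with replicate 4 lowest in both regions, whereas the receptor phosphatase gene PTPRG had 66.4, 65.2 and 68.4 CPM against 4.66, 5.07 and 4.80 CPM. PTPRZ1, another receptor phosphatase gene, had 223, 271 and 228 CPM against 23.5, 27.7 and 21.9 CPM. Immunoglobulin-type adhesion genes were IGSF3, igsf9b, chl1b and IGDCC3, with ratios of 10.9, 10.7, 15.9 and 34.6. SLITRK2, cdh24a, LRRTM4 and cntnap1 complete the group at mean distal levels of 5.07 to 17.1 CPM. LRRTM4 had 1, 2 and 0 reads in the proximal libraries and 4.61, 9.22 and 3.93 CPM in the distal ones, highest in replicate 3.

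**Figure D5:**
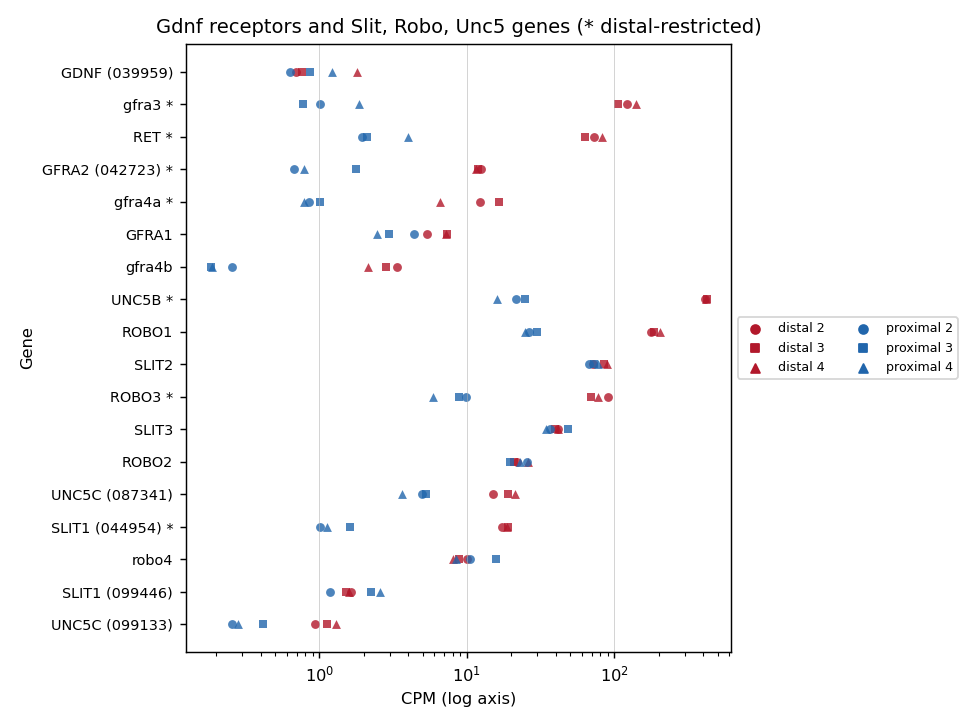
CPM on a log axis in each library for a Gdnf ligand gene, Ret and Gfra receptor genes and the Slit, Robo and Unc5 families with at least 1 CPM on average in a region; red is distal, blue is proximal, symbols give the replicate, and an asterisk marks the distal-restricted genes. Receptor genes gfra3, RET and UNC5B lie far to the right in distal libraries, while red and blue points overlap for GDNF, ROBO2 and SLIT3.

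Genes known mainly from neurons were also present. CACNA1B, for a neuronal type of calcium channel, had 65.3, 78.04 and 62.7 CPM in distal replicates 2, 3 and 4 and 1.02, 1.28 and 1.16 CPM in the proximal ones, a ratio of 59.6. CAMKV, for a kinase-like protein, had 50.7, 44.4 and 33.1 CPM against 0.762, 1.05 and 0.652 CPM, with replicate 4 lowest in both regions, and eno2, for the enolase called neuron-specific, 24.6, 37.1 and 28.7 CPM against 0.846, 1.05 and 0.745 CPM. MAP1B, for a microtubule-binding protein, had 58.4 ± 9.70 against 6.45 ± 1.29 CPM, UNC13B, for a protein that primes vesicles, 33.02 ± 5.92 against 3.91 ± 0.408 CPM, and LRRC7, for a scaffold protein of synapses, 14.1 ± 5.75 against 0.479 ± 0.220 CPM (mean ± SD, n = 3). MAP1B and UNC13B did not meet the rule under TMM scaling, at 5.98 and 5.80 times. The marker list of nerve sheath and neurons summed to 178 to 238 CPM in distal and 100.5 to 122 CPM in proximal libraries, most of it from tubb5. Of its 11 genes 4 were tested, with 3 higher distally and 1 proximally. The median log2 fold change of the 4 was 1.22. ELAVL3 and ELAVL4, also on the list, were low, at 0.492 ± 0.220 against 0.0914 ± 0.0821 CPM and 0.251 ± 0.0735 against 0.240 ± 0.0352 CPM. Values this low rest on few reads and do not stand for the list. The part of nerve tissue in the values of CACNA1B, CAMKV, eno2, MAP1B, UNC13B and LRRC7 was not tested.

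Genes of hormone and small-ligand signalling numbered 8, all but hrh3 at mean distal levels of at most 33.6 CPM. The histamine receptor gene hrh3 (ENSDARG00000035942) had 271, 239 and 199 CPM in distal replicates 2, 3 and 4 and 3.51, 2.51 and 4.84 CPM in the proximal ones, a ratio of 65.2, with replicate 2 highest among the distal libraries. Natriuretic peptide genes were npr1b, for a receptor, with 35.8, 32.4 and 32.7 CPM against 2.67, 2.74 and 1.49 CPM, and nppc, for a C-type natriuretic peptide, with 23.4, 37.99 and 37.3 CPM against 1.82, 1.87 and 3.35 CPM. VIPR1, for a receptor of vasoactive intestinal peptide, had 33.00 ± 5.91 against 2.54 ± 0.561 CPM, and PCSK1, for an enzyme that cuts prohormones, 19.4 ± 2.26 against 1.63 ± 0.379 CPM (mean ± SD, n = 3). PTH2R, of the parathyroid hormone receptor family, had 8.20, 9.98 and 15.7 CPM against 0.381, 0.229 and 0.838 CPM, with distal replicate 4 over 1.5 times both other distal libraries. AGTR1, for an angiotensin receptor, had 6.94, 7.34 and 6.21 CPM against 0.296, 0.0914 and 0.233 CPM, from 7, 2 and 5 reads in the proximal libraries, and the endothelin receptor gene ednrab lay at the limit of the rule with 8.71, 12.4 and 14.5 CPM against 1.44, 1.14 and 0.698 CPM.

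Genes for ion and solute transport numbered 4. KCNMA1, for a calcium-activated potassium channel, had 36.2, 52.7 and 46.6 CPM against 1.23, 1.46 and 1.02 CPM, and RHBG, for an ammonia transporter, 29.4, 20.4 and 13.6 CPM against 0.508, 0.457 and 0.140 CPM, with a more than 2-fold spread among its distal libraries. The calcium pump gene atp2b1b had 14.2 ± 2.63 against 0.978 ± 0.410 CPM. The zinc transporter gene slc39a4 had 9.87, 9.08 and 7.01 CPM in the distal libraries and 2, 3 and 0 reads in the proximal ones.

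The remaining 42 genes were given no role group and held 16.3% of the reads of the 112. The highest was the provisionally named si:ch73-217n20.1 with 224, 378 and 276 CPM against 23.1, 25.6 and 27.05 CPM. GAL3ST4, for a sulfotransferase that acts on sugar chains, had 324, 301 and 237 CPM against 32.8, 35.02 and 18.4 CPM, and cd248b, for a surface protein of mesenchymal cells (endosialin), 262, 271 and 203 CPM against 19.9, 18.5 and 9.92 CPM. In both, replicate 4 was lowest in distal and in proximal tissue. SORCS2, for a sorting receptor, had 188, 150.1 and 141 CPM against 16.6, 19.3 and 16.9 CPM, and apoc1, for an apolipoprotein, 44.5, 48.9 and 49.1 CPM against 6.39, 4.85 and 6.56 CPM. HKDC1, of the hexokinase family, had 19.4, 31.8 and 18.9 CPM against 0.212, 0.320 and 0.279 CPM. Its lowest distal library was 59.0 times its highest proximal one, from 5, 7 and 6 proximal reads. The gene ENSDARG00000114451 has no symbol in the table of gene names and had 232, 255 and 163 CPM against 20.2, 8.87 and 18.7 CPM. The 2 genes without a symbol and the 7 with a provisional name cannot be given a function from the files.

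The distal libraries did not give all 112 genes equally tight values. The median coefficient of variation over the 3 distal libraries was 14.8% for the 112 genes and 10.1% for all 12368 genes with a mean of at least 5 CPM. In 80 genes the highest distal library was less than 1.5 times the lowest. In 9 genes (8.04%, against 3.54% of the 12368) it was at least 2 times the lowest, and these were nrip2, ZDHHC2, SALL1, RHBG, LRRC7, gfra4a, cdh24a, ODAD2 and LRRTM4. ZDHHC2, for an enzyme that attaches fatty acids to proteins, had 46.7, 45.6 and 18.2 CPM in distal replicates 2, 3 and 4. ODAD2, for a part of the docking complex of ciliary dynein arms, had 8.80, 7.16 and 2.19 CPM. Replicate 4 was low for both. The highest distal library was replicate 2 in 36 of the 112 genes, replicate 3 in 43 and replicate 4 in 33. Among the other genes with a mean of at least 5 CPM it was replicate 2 in 26.6%, replicate 3 in 38.7% and replicate 4 in 34.7%. Leaving out any 1 library in turn kept 108 to 112 of the 112 genes, and 94 were kept in all 6 cases and under both other scalings. A left-out library cannot lower the ratio of the rule. In those 6 cases genes could be lost only through the minimum mean of 5 CPM, so the retention is no test of the ratio.

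The 112 genes held 0 genes of the 10 marker lists for other cell types. Over all 12368 genes with a mean of at least 5 CPM in distal tissue, 0.906% met the rule. At that share, 0 on lists this short is no result about the 112 genes. Against 15.3% and 14.4% of all genes (23.3% and 25.1% with the block), osteoblast markers gave 1 of 10 tested genes higher distally and 3 proximally (4 and 3 with the block). Endothelial markers gave 1 and 5 of 9 (1 and 6 with the block), and leukocyte markers 0 and 4 of 8 (0 and 5 with the block). Lateral line markers gave 0 and 2 of 9 (2 and 3 with the block), muscle markers 1 and 0 of 2, and red blood cell markers 0 and 0 of 6. Osteoblast markers summed to 3066 to 3805 CPM in distal and 4880 to 7228 CPM in proximal libraries. Endothelial markers summed to 139 to 166 CPM in distal and 228 to 297 CPM in proximal libraries. Sums of leukocyte, lateral line and muscle markers overlapped between the regions. For their place in the genome, 71 of the 112 could be matched by symbol to a gene of the RefSeq annotation of another assembly (GRCz12tu), and all 71 were protein coding. They lay on 24 chromosomes. No 2 of them were direct neighbours, and 3 pairs lay within 5 places of each other in gene order, namely AFAP1L2 and VWA2, zanl and GAL3ST4, and npr1b and RHBG.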

How the data were processed

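Per the labels' protocols, TRIzol was used for the RNA and a Kapa stranded kit for the mRNA libraries. The deposited values are raw read counts per Ensembl gene, 1 file per library, made with TopHat2 and HTSeq on GRCz11 (danRer11), per the submitters' processing notes; versions and the strand setting are not given in the sources used here. The 5 category lines and the line with a blank name, which equals the sum of the gene counts in each file, were left out. Uniquely placed reads without a gene were 14.1% to 14.6% in distal and 10.8% to 12.6% in proximal libraries. Reads aligned to several places were counted to no gene, which lowers genes with near-identical copies.

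CPM were counts divided by the sum over genes. All genes were tested with edgeR 4.0.16 (R 4.3.3): filterByExpr (18455 genes kept), TMM scaling, the quasi-likelihood F-test of distal against proximal over all 6 libraries without a block, and Benjamini-Hochberg adjustment at 0.05. The standard error is the absolute log2 fold change divided by the square root of F. No p-value is given for the 112 genes, which the same contrast chose. Members and lists were chosen with earlier results of these data known, and role groups and families after the values were seen. Genes were named when they were on a list, among the 10 highest or the 10 with the widest gap, next to the limit of 6, or of a shared family, with other recognisable genes added by value.

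Symbols came from the table of gene names, which covered 29178 of 31901 identifiers. It writes 65 of the 112 in capitals, often with 1 symbol for several paralogs. Of the 112, 29 have a symbol that some other identifier also carries. Identifiers are printed for only some of these. OGN, PTPRZ1, MAF, ITGA11, CACNA1B and others are printed by symbol alone, as is TNC outside the 112, and such a symbol is not unique to the gene described. Of 335 list symbols 318 were matched, and of 101 marker symbols 93.

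Samples of a region differed far beyond sampling noise (chi-square per degree of freedom 18.1 to 31.7), so each counts as 1 replicate. Labels do not say that pools came from separate fish or what a shared number means, so p-values measure the spread between these samples. Deviations from the region means correlated between same-numbered samples (r = 0.42, 0.56 and 0.68). Such samples are thus linked, by a source that the labels do not name. The p-values printed here nonetheless come from the fit with no block, and a gene without a call there can have one with the block. The replicate numbers come from the sample titles. Blocking on that number called 4306 genes higher distally and 4632 proximally, against 2819 and 2661 with no block. Alternatives were other limits, TMM and DESeq2 1.42.0 scaling, no filter, the DESeq2 Wald test, the block and each library left out. The edgeR code was tested on simulated data. The simulated counts held no link between same-numbered samples, so that run cannot show how the link affects the calls.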

Additional observations from a re-analysis of the deposited data

How the results depend on the processing

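The number of distal-restricted genes follows the limits chosen: 197 at a ratio of 4, 52 at a ratio of 10 and 70 at a minimum mean of 20 CPM, against 112. It was 138 at a minimum of 2 CPM, 99 with TMM scaling, 100 with DESeq2 size factors and 142 when each same-numbered pair alone had to reach 6 (the replicate block), and 115 to 137 with 1 library left out. The share of distal reads was 3.44% at a ratio of 4, 0.647% at a ratio of 10, 1.24% with TMM and with DESeq2 scaling and 1.40% to 1.69% with 1 library left out, against 1.37%. Fewer or more genes entered those sums. Genes higher in distal tissue numbered 4306 with the replicate block and 2061 to 2650 with 1 library left out, against 2819, and genes higher in proximal tissue 4632 and 1746 to 2443, against 2661. The lowest of the latter, 1746, was without distal replicate 3. The cause was not tested. No value changed direction under the alternatives run. For the 25 genes of the 112 named by list, level or gap, the rule made a change of direction impossible. The absence of reversals thus bears only on the other genes, and the counts that follow include both. For single named or family genes, 885 values kept their side of the threshold or moved within the replicate spread, 13 moved beyond it and 32 lost their call. With 3 libraries a region, genes just under the limit of 6 can enter when 1 library is left out, but none can leave through that limit. Values from fewer than 10 reads carry wide counting error.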
